A study of Arabidopsis thaliana with 28 samples.

Results

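Abscisic acid (ABA) seedlings sampled at 12 h were compared with ABA seedlings sampled at 4 h, to see what the early response kept, lost and gained over 8 h. The comparison took 4 of the 28 libraries of the series, 2 at 12 h and 2 at 4 h, chosen by their labelled treatment and time, and all 18310 genes of the deposited table. The seedlings were whole Arabidopsis thaliana Col-0 plants, germinated and kept in the dark for 3 days on a nylon mesh over liquid medium and then given 10 µM ABA. Mock seedlings received ethanol alone and were sampled at the same times, so the 2 mock libraries at 12 h and the 2 at 4 h gave the background of age and time of day. The 8 h libraries of both arms (2 each) and the ABA libraries at 1 h and 24 h (2 each) were used beside them. All groups shared the wild-type background, the darkness and the age at treatment, and no mutant was included. Replicates carry a number in the labels, and whether they came from separate cultures is not given in the sources used here, so p-values cover the spread between these libraries, which may be technical.

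ABA is the stress and dormancy hormone of plants. It binds PYR/PYL receptors, which then block clade A PP2C phosphatases, and this frees SnRK2 kinases to activate ABF-type bZIP factors at promoters that carry ACGT-core elements. In young seedlings ABA halts growth, induces dehydrins and other late embryogenesis abundant (LEA) proteins, and induces genes for cuticular wax and for suberin, the lipid and phenolic polymer that seals root cell walls.

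The files hold RPKM, read counts normalised to gene length and to library size. Reads recovered from these values numbered 20.65 to 22.96 M in the 4 ABA libraries and 16.27 to 26.6 M over all 28. Genes of the organelles took 0.22% and 1.271% of reads in the ABA 12 h libraries, against 0.24% and 0.553% in the ABA 4 h libraries, and 0 of 77 such genes passed the test by limma, by limma-voom or at an unadjusted p under 0.05. Their median log2 difference at 12 h minus 4 h with ABA was nevertheless 0.77, beside 0.006 over all genes. The part of the organelle reads in the results was not tested. Of 12 root hair markers 5 were measured, with sums of 16.4 and 2.61 RPKM at 12 h and 5.31 and 4.62 RPKM at 4 h with ABA. Of 13 markers of guard cells and their lineage 10 were measured, with sums of 109 and 112 RPKM at 12 h and 100 and 121 RPKM at 4 h with ABA, so transcripts of root and shoot cell types were both detected. In RNA from whole seedlings, fewer cells of a type and less RNA per cell cannot be told apart.

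Most of the ABA transcriptome kept its level. Differences are log2(RPKM + 1) at 12 h minus 4 h, ± the standard error (SE) of a limma model over all 28 libraries. A gene was called at a Benjamini-Hochberg adjusted p under 0.05 over 18310 genes, and was counted as held where the 95% interval of its difference lay within 2-fold. A small difference could thus be both called and held. Of 18310 genes 15603 (85.2%) were held and 427 (2.33%) were called, 143 higher at 12 h (0.781%) and 284 lower (1.55%). Of the called genes 181 changed at least 2-fold on this scale, 63 higher and 118 lower. The libraries of the 2 times did not overlap for any of the 427 called genes, against 48.4% of all genes. The median difference over all genes was 0.006, and 3096 genes had an unadjusted p under 0.05.

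The number of calls rested on few libraries. Without replicate 1 or replicate 2 of the 12 h group, 84 or 26 genes were called higher and 226 or 31 lower. Without replicate 1 or replicate 2 of the 4 h group, 23 or 64 were called higher and 31 or 155 lower. In each of these fits the library left alone in its group is assumed to vary like the other groups. A total of 43 genes were called in all 4 of them, 16 higher and 27 lower, and these are marked below. A model of the 4 libraries alone called 1 gene, OSM34.

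Few genes passed the same test in mock seedlings. In limma 6 of 18310 genes were called in mock (0.0328%), 2 higher and 4 lower at 12 h, and 1889 had an unadjusted p under 0.05. The 2 higher genes were EXPA12, an expansin that loosens cell walls, and LNK4. EXPA12 had 4.17 and 5.91 RPKM at 12 h, against 0.58 and 0.742 RPKM at 4 h in mock. The genes called with ABA nevertheless leaned the same way in mock. Among the 143 called higher with ABA, 124 (86.7%) had a positive mock difference, with a median of 0.92 with ABA and 0.24 in mock. Among the 284 called lower with ABA, 215 (75.7%) had a negative mock difference, with a median of -0.93 with ABA and -0.30 in mock. The ABA values chose these genes, which enlarges the ABA medians but not the mock ones. The gap between the medians is thus no evidence that the arms differ. Over all genes 50.3% had a positive mock difference. The change differed between ABA and mock, by the interaction term of the same model, for 32 genes (0.175%), 8 more positive with ABA (0.0437%) and 24 more negative (0.131%), and 714 had an unadjusted p under 0.05.

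**Figure D1:**
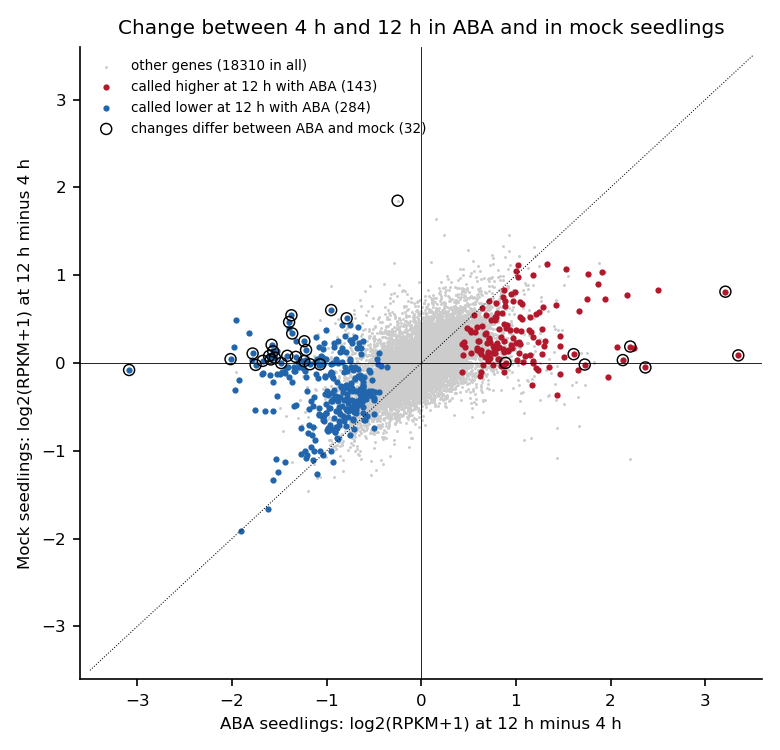
Change at 12 h minus 4 h in ABA seedlings (x axis) and in mock seedlings (y axis), each as log2(RPKM + 1), 1 point per gene. The 143 genes called higher (red) and the 284 called lower (blue) with ABA have medians of 0.92 and -0.93 on the x axis. On the y axis their medians are 0.24 and -0.30. The ABA values chose these genes, which widens this gap. The 32 genes whose change differed between the arms are circled.

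Most genes that were higher with ABA than in mock at 8 h had kept their level between 4 h and 12 h. ABA-responsive genes were picked from the 8 h libraries of both arms, which stand on neither side of the 12 h against 4 h comparison but enter its shared estimate of spread. This choice leaves out genes that stood above mock at 4 h but were not called at 8 h, such as SNRK2.7 and RNS1, described below. Losses from the 4 h response may thus be understated. At 8 h 1450 genes were higher with ABA than in mock (7.92%) and 654 were lower (3.57%). Of the 1450 induced genes 1020 (70.3%) were held between the times, 103 (7.1%) were called lower at 12 h and 61 (4.21%) were called higher. Of the 654 repressed genes 531 (81.2%) were held, 22 (3.36%) were called lower and 12 (1.83%) were called higher. Of the 16206 genes not called at 8 h 14052 (86.7%) were held, 159 (0.981%) were called lower and 70 (0.432%) were called higher. The overlap itself was not tested. Called and held were not exclusive, and 19 induced, 4 repressed and 57 other genes were both. Without replicate 2 of the 12 h group or without replicate 1 of the 4 h group, the induced genes called lower numbered 24 in each case, and those called higher numbered 22 and 19.

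The gene with the largest fall had peaked at 4 h. It was AT1G05450 (chromosome 1, 1599876 to 1601214, plus strand, build TAIR10.1), which encodes a lipid-transfer protein of the bifunctional inhibitor type. It reached 3.26 and 1.75 RPKM at 12 h, against 34.9 and 22.5 RPKM at 4 h with ABA. In mock it had 0.0806 and 0 RPKM at 12 h, against 0.0931 and 0.103 RPKM at 4 h, so the fall took it most of the way back to the mock level. It fell by 3.09 ± 0.21 with ABA (adjusted p = 3.13e-07), and its change differed from that in mock by -3.01 ± 0.29 (adjusted p = 0.00012). At 1, 4, 8, 12 and 24 h of ABA its mean was 0.108, 28.7, 2.46, 2.5 and 1.33 RPKM, so the level at 12 h had been reached by 8 h.

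The promoter of AT1G05450 is shown with those of 2 suberin genes described next, ASFT and ABCG6, as examples of genes with a peak at 4 h. Other genes described below peaked at 4 h too. Each is the RefSeq sequence of build TAIR10.1 for the 250 bases before the gene start, printed 5′ to 3′ on the strand of the gene. Capitals mark ACGTG, the core of the ABA-response element, and TTGACT, a W box (the element that WRKY factors bind), on either strand. All 3 windows hold TTGACT, which reads AGTCAA on the other strand, and none holds ACGTG.
AT1G05450, chr1:1599626-1599875, plus strand: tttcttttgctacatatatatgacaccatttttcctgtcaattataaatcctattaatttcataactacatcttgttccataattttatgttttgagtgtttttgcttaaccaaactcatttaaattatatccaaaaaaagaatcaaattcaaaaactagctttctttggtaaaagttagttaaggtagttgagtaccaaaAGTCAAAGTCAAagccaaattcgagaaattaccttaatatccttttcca
ASFT, chr5:16431054-16431303, plus strand: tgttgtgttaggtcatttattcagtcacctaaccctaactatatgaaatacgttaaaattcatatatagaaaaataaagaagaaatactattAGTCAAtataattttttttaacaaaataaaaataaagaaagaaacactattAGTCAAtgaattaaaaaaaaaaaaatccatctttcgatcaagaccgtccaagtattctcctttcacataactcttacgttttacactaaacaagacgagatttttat
ABCG6, chr5:4370442-4370691, plus strand: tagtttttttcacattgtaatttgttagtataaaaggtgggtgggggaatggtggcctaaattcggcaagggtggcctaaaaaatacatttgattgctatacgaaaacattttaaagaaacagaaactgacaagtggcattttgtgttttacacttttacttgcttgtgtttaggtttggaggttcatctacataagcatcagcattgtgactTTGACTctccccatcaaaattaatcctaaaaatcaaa
In AT1G05450 the 2 copies of AGTCAA stand directly next to each other.

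Among 36 gene lists, wax and suberin synthesis and export had the most members called lower. Of its 19 measured genes 9 fell, 1 rose and 6 were held, with a median difference of -0.89 with ABA and 0.04 in mock, beside 0.006 with ABA over all genes. Of all genes 1.55% fell, 0.781% rose and 85.2% were held. All 9 genes that fell were higher with ABA than in mock at 8 h. They also had their highest ABA mean at 4 h among the 7 times, a pattern to which their choice by the 4 h values contributes, and both 8 h libraries lay below both 4 h libraries for each. The list was chosen with earlier results of these data known and so is no independent evidence of a direction. Without replicate 1 or replicate 2 of the 12 h group, 9 or 4 of its genes were called lower, and without replicate 1 or replicate 2 of the 4 h group, 4 or 9.

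The enzymes that make suberin monomers were among the 9. GPAT5, the acyltransferase that builds suberin monoacylglycerols, had 16.4 and 12.6 RPKM at 12 h, against 35.3 and 34.3 RPKM at 4 h with ABA, and it stayed at or under 0.186 RPKM in the 4 mock libraries. It fell by 1.22 ± 0.17 (adjusted p = 0.000994). CYP86B1, which hydroxylates very-long-chain fatty acids for suberin, had 3.82 and 3.08 RPKM at 12 h and 14.4 and 12.0 RPKM at 4 h, a fall by 1.67 ± 0.15 (adjusted p = 7.35e-06). The 12 h and 4 h libraries of both genes were well apart, and both genes were called in all 4 fits with a library left out, although GPAT5 was not called with a pseudocount of 0.1. The fatty acyl reductases FAR4 and FAR5, which make suberin alcohols, fell by 1.04 ± 0.18 and 1.26 ± 0.20. These neighbours on chromosome 3 resemble each other in sequence, so reads could be shared between them.

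The step that attaches ferulate and the export step followed the same pattern. ASFT, the feruloyl transferase of suberin (chromosome 5, 16431304 to 16433305, plus strand, named RWP1 in RefSeq), had 81.1 and 57.3 RPKM at 12 h, against 162 and 136 RPKM at 4 h with ABA. In mock it had 7.01 and 7.29 RPKM at 12 h and 6.56 and 4.83 RPKM at 4 h. It fell by 1.11 ± 0.23 with ABA (adjusted p = 0.0178) and remained above mock in every library at 12 h. ABCG6, a half-size ABC transporter for suberin export, had 34.4 and 27.4 RPKM at 12 h, against 74.4 and 60.8 RPKM at 4 h with ABA, and 0.0917 to 0.243 RPKM in the 4 mock libraries. It fell by 1.11 ± 0.22 (adjusted p = 0.0114). Its relative ABCG20 had 0.53 and 0.418 RPKM at 12 h and 2.28 and 2.38 RPKM at 4 h with ABA, a fall by 1.18 ± 0.12 (adjusted p = 3.25e-05). ABCG16, which was not on the list, had 6.61 and 6.54 RPKM at 12 h and 27.7 and 21.6 RPKM at 4 h, a fall by 1.75 ± 0.21 (adjusted p = 0.000142). In the ABCG transporter family, chosen after its values were seen, 7 of 31 measured members were called lower and 1, ABCG37, was called higher, where 1.55% and 0.781% of all genes were. Other families counted in this way leaned less to falls. UPF0497 (CASP-like) proteins had 2 higher and 3 lower of 32, and class III peroxidases 3 and 2 of 54. GDSL-like lipases had 1 and 3 of 52, MLP-like proteins 2 and 1 of 7, and HSP20-like chaperones 1 and 0 of 26.

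On the wax side CER3, a subunit of the alkane-forming complex, had 96.0 and 90.5 RPKM at 12 h, against 186 and 163 RPKM at 4 h with ABA, and fell by 0.89 ± 0.12 (adjusted p = 0.000714). WSD1, a wax ester synthase, fell by 1.19 ± 0.25 (adjusted p = 0.0161). CER1, the partner of CER3, had 139 and 124 RPKM at 12 h and 231 and 157 RPKM at 4 h with ABA, and its difference of -0.53 ± 0.47 did not pass the test (adjusted p = 0.61). The one member that rose was CYP86A1, the fatty acid hydroxylase of root suberin, with 2.93 and 1.36 RPKM at 12 h and 0.685 and 0.112 RPKM at 4 h. It rose by 1.15 ± 0.21 (adjusted p = 0.00615), so CYP86A1 and CYP86B1 moved in opposite directions. The call of CYP86A1 was lost without replicate 1 of the 12 h group or without replicate 2 of the 4 h group. MYB41, a factor that activates suberin genes, had 11.7 and 9.3 RPKM at 12 h, against 23.3 and 17.2 RPKM at 4 h with ABA, and no reads in the 4 mock libraries. It fell by 0.88 ± 0.22 (adjusted p = 0.047), a call lost in each fit with a library left out, under a filter at a mean of 1 RPKM and with a pseudocount of 0.1. WSD1, FAR4, FAR5, ASFT and ABCG6 were not called without replicate 2 of the 12 h group or without replicate 1 of the 4 h group. CER3 and ABCG20 were called in all 4 fits. ABCG6, FAR4 and FAR5 were not called with a pseudocount of 0.1. Of the 9 genes, CYP86B1, GPAT5 and ABCG20 had a change that differed from that in mock, by -1.70 ± 0.21, -1.37 ± 0.25 and -1.16 ± 0.18. Their mock differences were 0.02, 0.15 and -0.01. GPAT5 was barely detected in mock, where a fall could hardly show, so its interaction largely restates the fall with ABA.

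**Figure D2:**
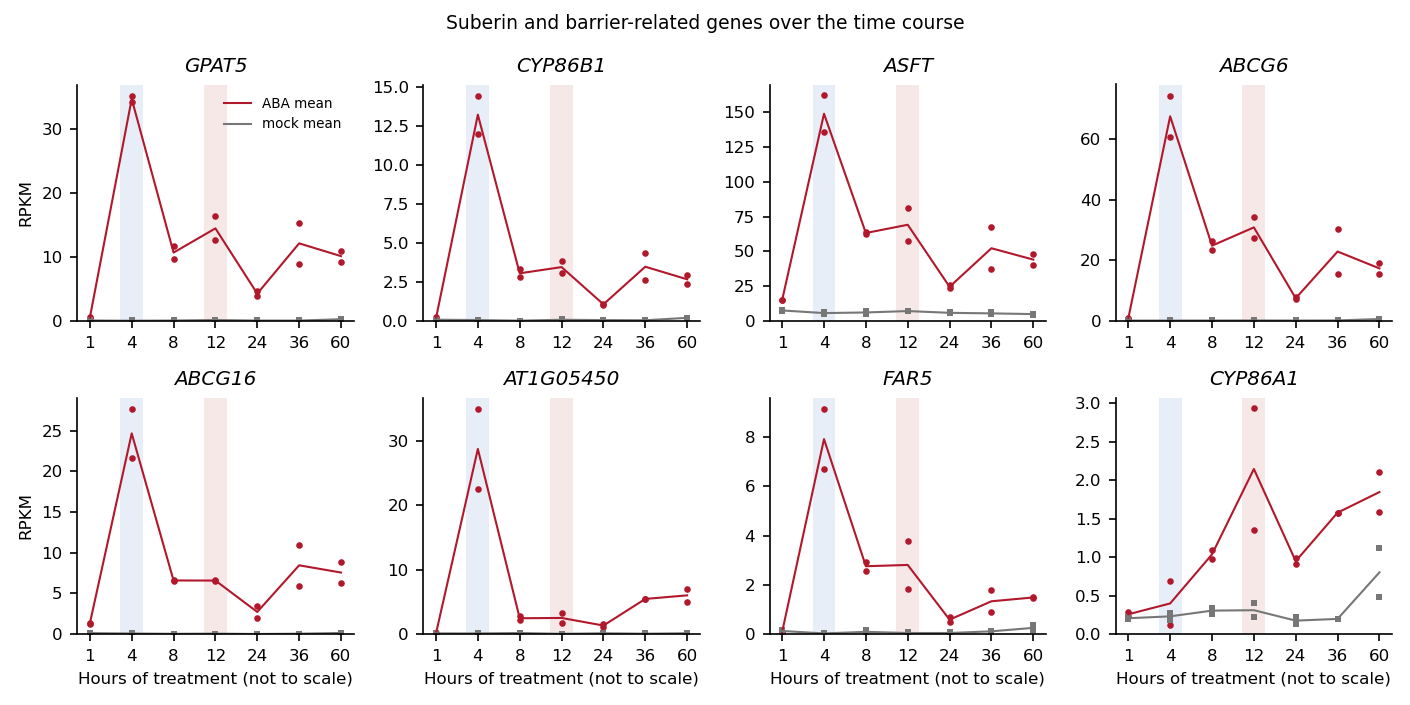
RPKM of 8 suberin and barrier-related genes at 1, 4, 8, 12, 24, 36 and 60 h (x axis, not to scale) in ABA seedlings (red) and mock seedlings (grey), with 1 point per library, lines through the means of 2 libraries, and 4 h and 12 h shaded. GPAT5, CYP86B1, ASFT, ABCG6, ABCG16, AT1G05450 and FAR5 peak at 4 h with ABA and are lower at 8 h and 12 h, while CYP86A1 is highest at 12 h.

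The other large falls included genes that ABA had raised and genes that it had lowered. AT1G68850, a class III peroxidase, was of the first kind. It had 5.78 and 4.08 RPKM at 12 h, against 20 and 18.4 RPKM at 4 h with ABA, and at most 0.198 RPKM in the 4 mock libraries. It fell by 1.78 ± 0.17 (adjusted p = 9.11e-06). AT1G29090, a papain-type cysteine protease, was of the second kind. It had 0.398 and 0.441 RPKM at 12 h, against 5.48 and 4.08 RPKM at 4 h with ABA, and in mock 104 and 95.9 RPKM at 12 h, against 98.8 and 95.2 RPKM at 4 h. It fell by 2.01 ± 0.24 with ABA (adjusted p = 0.000139), and its change differed from that in mock by -2.06 ± 0.34 (adjusted p = 0.00917). SDR4, the secreted CAP protein AT4G07820 and the glycosyl hydrolase GH9B15 were likewise lower with ABA than in mock at 8 h, and fell by 1.97 ± 0.45, 1.96 ± 0.39 and 1.92 ± 0.29. RNS1, a secreted ribonuclease, had 4.52 and 3.76 RPKM at 12 h and 34.1 and 10.6 RPKM at 4 h with ABA, and 5.88 and 5.36 RPKM at 12 h and 5.32 and 4.4 RPKM at 4 h in mock, so its 4 h libraries also differed from each other. It fell by 1.98 ± 0.37 (adjusted p = 0.0075).

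THI2.2, a thionin, fell alike in both arms. It had 1.96 and 1.19 RPKM at 12 h, against 10.1 and 7.13 RPKM at 4 h with ABA, and 2.15 and 0.806 RPKM at 12 h, against 9.6 and 6.6 RPKM at 4 h in mock. The differences were -1.90 with ABA (adjusted p = 0.00792) and -1.91 in mock (adjusted p = 0.106). FTM1, an acyl carrier protein desaturase, and AT5G46890, a lipid-transfer protein, completed the 12 largest falls, by 1.79 ± 0.42 and 1.76 ± 0.44. AT1G05450, AT1G29090, AT1G68850 and ABCG16 were called in all 4 fits with a library left out. GH9B15 was lost without replicate 1 of the 4 h group, and the other 7 of the 12 without either that library or replicate 2 of the 12 h group, among them SNRK2.7, described below. AT4G07820 and FTM1 were also not called by limma-voom on the recovered reads, and THI2.2 and AT5G46890 were not called with a pseudocount of 0.1.

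**Figure D3:**
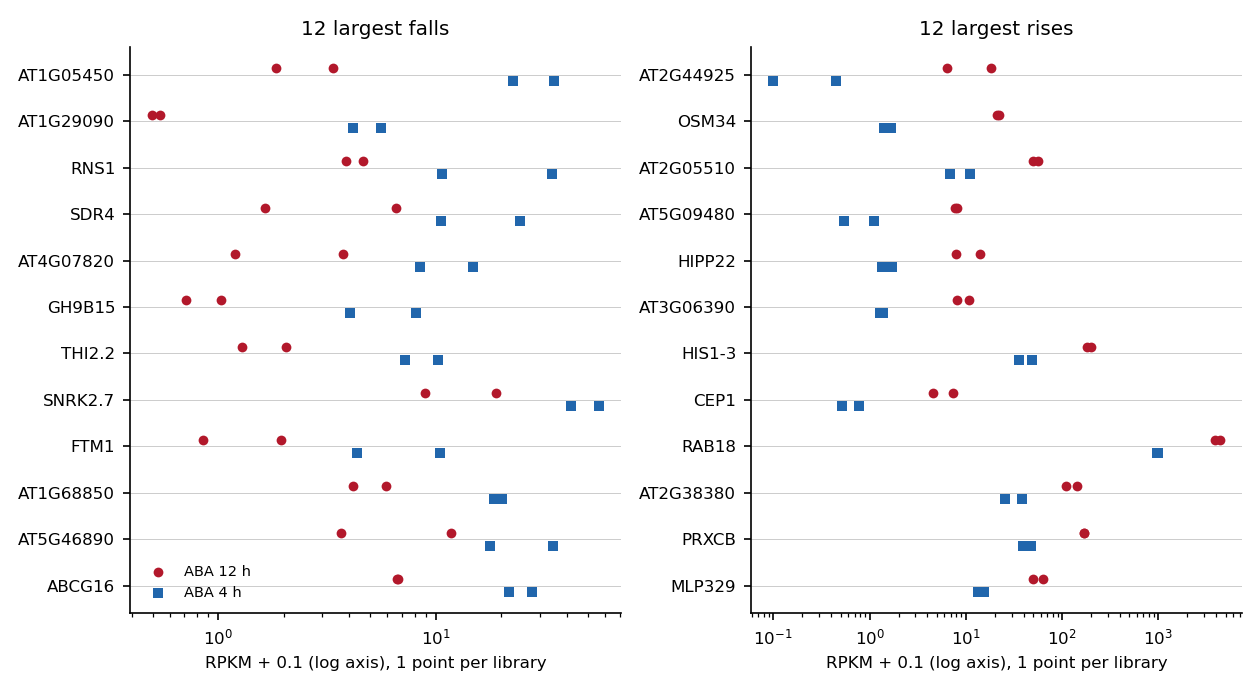
RPKM plus 0.1 (log axis) in each ABA library for the 12 largest falls (left) and the 12 largest rises (right) among called genes, with 12 h as red circles and 4 h as blue squares. The 12 h and 4 h libraries do not overlap for any of the 24 genes, which the naming rule required.

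Genes of the ABA signalling core were held about as often as genes in general, of which 85.2% were held and 2.33% called. Of 9 measured clade A PP2C phosphatases, which act as brakes on the pathway and are themselves ABA-induced, 8 were held and 0 were called by limma or limma-voom, with 1 at an unadjusted p under 0.05 and a median of -0.10. ABI1 had 233 and 238 RPKM at 12 h, against 252 and 237 RPKM at 4 h with ABA, and in mock 64.7 and 72.4 RPKM at 12 h, against 48.6 and 53.9 RPKM at 4 h. Its difference with ABA was -0.06 ± 0.17, with a 95% interval of -0.41 to 0.30. HAB1 had 76.6 and 92.6 RPKM at 12 h and 91.0 and 91.2 RPKM at 4 h with ABA, and PP2CA had 195 and 147 RPKM at 12 h and 197 and 164 RPKM at 4 h. All 8 measured ABA receptors, 8 of 10 SnRK2 kinases, 6 of 7 ABF and ABI5 factors and all 10 NF-YA factors, subunits of CCAAT-binding complexes, were held as well. None of these 4 lists had a gene called higher, and the kinases had 1 called lower. ABF3 had 220 and 282 RPKM at 12 h and 190 and 204 RPKM at 4 h with ABA, a difference of 0.34 ± 0.24.

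That 1 kinase was SNRK2.7, which is not among the SnRK2s most strongly activated by ABA. It had 18.9 and 8.85 RPKM at 12 h, against 56.0 and 41.6 RPKM at 4 h with ABA, and 12.9 and 11.6 RPKM at 12 h, against 10.0 and 8.92 RPKM at 4 h in mock. It fell by 1.82 ± 0.31 with ABA (adjusted p = 0.00396), to about the mock level. SNRK2.2, a kinase of the ABA core pathway, had 146 and 150 RPKM at 12 h and 126 and 142 RPKM at 4 h with ABA and was held. MAPKKK18, the first kinase of an ABA-induced MAP kinase cascade, had 9.42 and 6.18 RPKM at 12 h, against 21.7 and 22.3 RPKM at 4 h with ABA, and fell by 1.41 ± 0.23 (adjusted p = 0.00237). Without replicate 2 of the 12 h group MAPKKK18 was not called. It was the 1 called gene of the 7 measured ABA feedback proteins and kinases, of which 4 were held, where 85.2% of all genes were. All 7 had a negative difference with ABA, and the median was -0.36 with ABA and 0.12 in mock.

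Among 40 measured stress-type transcription factors 30 were held, 4 fell and 0 rose, where 85.2% of all genes were held and 1.55% fell. The 4 were HSFA6B, a heat shock factor induced by ABA, CBF4, a drought-induced factor of the CBF family, the zinc finger factor ZAT6, and MYB41, described above. HSFA6B had 23.3 and 14.2 RPKM at 12 h, against 56.6 and 55.5 RPKM at 4 h with ABA, and 1.03 and 1.32 RPKM at 12 h, against 1.05 and 0.988 RPKM at 4 h in mock. It fell by 1.57 ± 0.27 with ABA (adjusted p = 0.0046). CBF4 fell by 1.21 ± 0.23 and ZAT6 by 0.88 ± 0.18. All 3 calls were lost without replicate 2 of the 12 h group or replicate 1 of the 4 h group, and those of CBF4 and ZAT6 also without replicate 2 of the 4 h group. RD26 and HB7, factors of the same list, had 134 and 119 RPKM and 215 and 167 RPKM at 12 h, against 163 and 153 RPKM and 219.6 and 171 RPKM at 4 h with ABA.

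The most abundant induced genes that were held were ERD14, ADC2, FER1, COR6.6 and RD22. ERD14 encodes a dehydrin, ADC2 the arginine decarboxylase of polyamine synthesis, FER1 a ferritin, COR6.6 a small cold-regulated protein and RD22 a drought-induced BURP protein. RD22 had 782 and 773 RPKM at 12 h, against 771 and 618 RPKM at 4 h with ABA, while mock had 51.4 and 56.3 RPKM at 12 h, against 48.6 and 69.7 RPKM at 4 h. The differences of the 5 genes with ABA lay between -0.26 and 0.17. The promoter of HAB1 is shown as an example of a held gene, with the letters marked as above. It holds 1 ACGTG and no TTGACT, and ACGTG stood in 47.5% of the 1020 promoters of induced and held genes.
HAB1, chr1:27389698-27389947, plus strand: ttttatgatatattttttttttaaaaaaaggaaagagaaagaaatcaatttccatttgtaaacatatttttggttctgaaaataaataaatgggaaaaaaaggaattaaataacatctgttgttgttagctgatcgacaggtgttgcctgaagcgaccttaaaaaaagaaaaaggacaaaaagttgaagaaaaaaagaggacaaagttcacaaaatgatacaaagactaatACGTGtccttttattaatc

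The gains ranged from a gene with almost no reads at 4 h to some of the most abundant stress genes. AT2G44925, an uncharacterised gene, had 18 and 6.31 RPKM at 12 h, against 0.348 and 0 RPKM at 4 h with ABA, from 197 reads at 12 h and 3 reads at 4 h. Its difference was 3.35 ± 0.34 (adjusted p = 2.07e-05). OSM34, an osmotin of the thaumatin-like defence proteins (chromosome 4, 7024852 to 7026224, minus strand), had 21.0 and 22.2 RPKM at 12 h, against 1.3 and 1.58 RPKM at 4 h with ABA. In mock it had 6.33 and 7.34 RPKM at 12 h, against 3.16 and 3.77 RPKM at 4 h, so at 4 h ABA libraries lay below mock and at 12 h above. OSM34 rose by 3.21 ± 0.29 with ABA (adjusted p = 7.35e-06), and its change differed from that in mock by 2.4 ± 0.41 (adjusted p = 0.0126).

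RAB18, a dehydrin that serves as a classic ABA marker (chromosome 5, 26518277 to 26519447, minus strand), had 4329 and 3910 RPKM at 12 h, against 972 and 991 RPKM at 4 h with ABA. In mock it had 97.7 and 83.2 RPKM at 12 h, against 79.6 and 78.6 RPKM at 4 h. It rose by 2.07 ± 0.42 (adjusted p = 0.0154), although the call was lost in each fit with a library left out. The ABA mean went on to 6696, 9856 and 11298 RPKM at 24, 36 and 60 h. HIS1-3, a linker histone induced by drought and ABA, had 182 and 198 RPKM at 12 h, against 35.2 and 48.1 RPKM at 4 h with ABA, and 33.4 and 38.6 RPKM at 12 h, against 16.7 and 25.1 RPKM at 4 h in mock. It rose by 2.18 ± 0.29 (adjusted p = 0.000538). The promoters of RAB18 and OSM34 are shown because both genes rose while their marked letters differ. RAB18 holds 3 copies of ACGTG and no TTGACT, and OSM34 holds 1 TTGACT and no ACGTG.
RAB18, chr5:26519448-26519697, minus strand: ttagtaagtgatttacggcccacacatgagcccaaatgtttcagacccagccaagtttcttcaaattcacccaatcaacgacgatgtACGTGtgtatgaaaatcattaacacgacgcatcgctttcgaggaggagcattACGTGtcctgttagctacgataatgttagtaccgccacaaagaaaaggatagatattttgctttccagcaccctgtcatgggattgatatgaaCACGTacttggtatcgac
OSM34, chr4:7026225-7026474, minus strand: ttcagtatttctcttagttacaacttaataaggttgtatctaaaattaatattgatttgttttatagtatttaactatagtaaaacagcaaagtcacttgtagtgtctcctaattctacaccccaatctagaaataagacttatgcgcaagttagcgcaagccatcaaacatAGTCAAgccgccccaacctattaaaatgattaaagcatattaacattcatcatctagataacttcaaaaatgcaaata

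The remaining large rises included genes for cell wall proteins. AT5G09480, a hydroxyproline-rich glycoprotein, had 8.03 and 7.56 RPKM at 12 h, against 1.0 and 0.446 RPKM at 4 h with ABA, and stayed between 0.59 and 0.745 RPKM in the 4 mock libraries. It rose by 2.37 ± 0.19 (adjusted p = 2.89e-06), and its ABA means at 1, 4, 8, 12 and 24 h were 0.439, 0.725, 7.49, 7.79 and 1.76 RPKM, so the high level was seen at 8 h and 12 h and not at 24 h. The glycine-rich protein AT2G05510 had 50.1 and 56.3 RPKM at 12 h and 6.71 and 10.9 RPKM at 4 h. PRXCB, a cell wall peroxidase, had 169 and 167 RPKM at 12 h and 47.1 and 39.3 RPKM at 4 h, and AT2G38380, another peroxidase, had 144 and 109 RPKM at 12 h and 38.0 and 25.2 RPKM at 4 h. Both peroxidases have close relatives, so reads could be split among them. CEP1, a cysteine endopeptidase of dying tapetum cells, had 7.27 and 4.51 RPKM at 12 h and 0.678 and 0.419 RPKM at 4 h, with at most 0.07 RPKM in the 4 mock libraries. HIPP22, a heavy-metal-binding protein, AT3G06390, a UPF0497 membrane protein of the CASP-like family, and MLP329, a major latex-like protein, rose by 2.25 ± 0.32, 2.21 ± 0.20 and 1.91 ± 0.29. AT2G05510, PRXCB and MLP329 also had mock differences of 0.83, 0.73 and 1.04, and the interaction was called for none of them. The mock differences of AT2G38380, CEP1, HIPP22 and AT3G06390 were -0.16, 0.03, 0.17 and 0.19. Of the 12 largest rises, AT2G38380 joined RAB18 in losing its call in each fit with a library left out, AT2G05510 lost it in 3 of the 4 fits and with a pseudocount of 0.1, and the other 9 were called in all 4.

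RAB18 was the only called gene of the 27 measured LEA and dehydrin genes, of which 3 were held, where 2.33% of all genes were called and 85.2% held. The median of the list was 0.44 with ABA and 0.17 in mock. LEA7 had 4201 and 2635 RPKM at 12 h, against 2113 and 1625 RPKM at 4 h with ABA, a difference of 0.84 ± 0.55 (adjusted p = 0.462). COR47, another dehydrin, had 3235 and 2398 RPKM at 12 h, against 4304 and 3452 RPKM at 4 h, a difference of -0.47 ± 0.34 (adjusted p = 0.515). Of 13 classic ABA markers 6 were held, none was called by limma or limma-voom, and 4 had an unadjusted p under 0.05. The pair of RD29 genes, neighbours on chromosome 5, had unlike values. RD29A had 690.3 and 506 RPKM at 12 h, against 1363 and 1119 RPKM at 4 h with ABA (-1.06 ± 0.31, adjusted p = 0.0792), and RD29B had 2273 and 1696 RPKM at 12 h, against 1932 and 1461 RPKM at 4 h (0.22 ± 0.44, adjusted p = 0.841).

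The list of seed genes had the highest median of any list, 1.29 with ABA and -0.06 in mock, but none of 18 passed the test by limma or limma-voom. Of the 18, 6 had an unadjusted p under 0.05 and 3 were held, where 85.2% of all genes were held. The summed level of the 18 seed genes was 1298 and 1727 RPKM at 12 h, against 532 and 515 RPKM at 4 h with ABA. In mock it was 418 and 293 RPKM at 12 h, against 453 and 296 RPKM at 4 h. Of this list 3 loci had been dropped because their symbols did not match the annotation. One of them, BETA-TIP, a seed vacuole aquaporin like TIP3;1, was called higher in the whole table (1.53, adjusted p = 0.0269), with 67.3 and 87.3 RPKM at 12 h, against 22.6 and 29.6 RPKM at 4 h with ABA, and a mock difference of 1.08. The seed maturation protein AT3G22490, on no list, was called higher too (1.21, adjusted p = 0.0444), and both, noticed after their values were seen, lost their calls in each fit with a library left out. All 4 ABA sums at 12 h and 4 h were above the mock sums, and 17 of 18 genes had a positive difference with ABA. CRA1, a 12S storage globulin, had 219 and 436 RPKM at 12 h, against 101 and 84.3 RPKM at 4 h with ABA, a difference of 1.74 ± 0.89 (adjusted p = 0.337). TIP3;1, the aquaporin of seed protein storage vacuoles, had 171 and 120.1 RPKM at 12 h and 51.1 and 40.4 RPKM at 4 h. OLEO2, an oil body protein, had 378 and 209 RPKM at 12 h and 118 and 93.9 RPKM at 4 h. The 12 h and 4 h libraries of these 3 genes did not overlap, while the 12 h libraries of each gene also stood apart from each other.

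**Figure D4:**
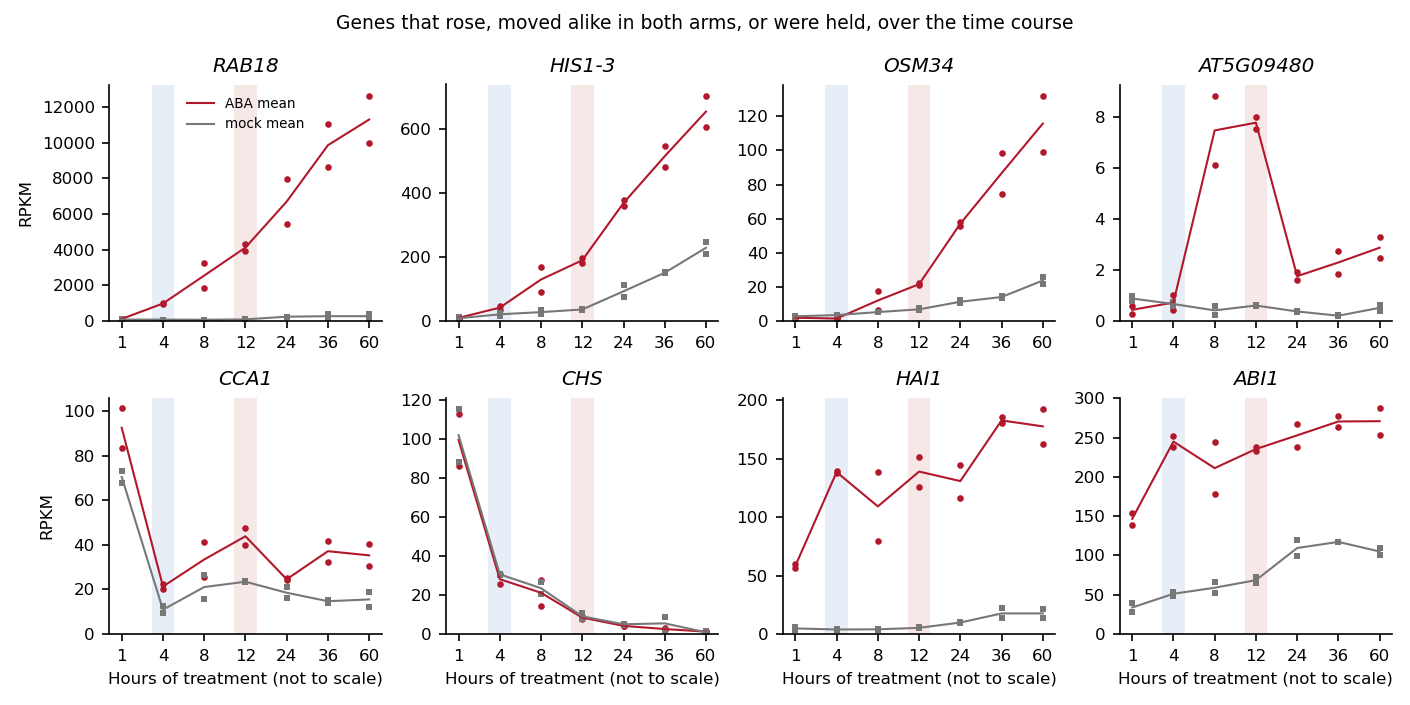
RPKM of RAB18, HIS1-3, OSM34, AT5G09480, CCA1, CHS, HAI1 and ABI1 at 1, 4, 8, 12, 24, 36 and 60 h (x axis, not to scale) in ABA seedlings (red) and mock seedlings (grey), with 1 point per library and lines through the means of 2 libraries. RAB18, HIS1-3 and OSM34 climb through to 60 h with ABA, AT5G09480 is high at 8 h and 12 h, CCA1 and CHS move alike in both arms from 1 h to 12 h, and the phosphatases HAI1 and ABI1 are level between 4 h and 12 h with ABA.

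Some genes called with ABA had mock differences of like size that did not pass the test. Of 32 measured circadian clock genes 3 rose with ABA, 0 fell and 14 were held, with a median of 0.48 with ABA and 0.46 in mock. Of all genes 0.781% rose, 1.55% fell and 85.2% were held. CCA1, a morning-phase repressor of the clock, had 40.1 and 47.6 RPKM at 12 h, against 22.4 and 20.3 RPKM at 4 h with ABA, and 23.2 and 23.8 RPKM at 12 h, against 12.6 and 9.25 RPKM at 4 h in mock. The differences were 1.00 ± 0.25 with ABA (adjusted p = 0.0449) and 1.05 in mock (adjusted p = 0.171), and the interaction was -0.05 ± 0.36. CDF2, a repressor of flowering genes, and GRP7, a clock-controlled RNA-binding protein, rose by 0.88 ± 0.17 and 0.95 ± 0.21 with ABA, with mock differences of 0.71 and 0.79. LHY, the partner of CCA1, had 52.7 and 72.7 RPKM at 12 h and at most 16.4 RPKM at 4 h with ABA and did not pass the test (1.88 ± 0.49, adjusted p = 0.0521). The calls of CCA1 and GRP7 were lost in each fit with a library left out, and that of CCA1 also under quantile normalization and with a pseudocount of 0.1. CDF2 was not called without replicate 2 of the 12 h group or replicate 1 of the 4 h group.

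Of 14 measured flavonoid genes 2 fell with ABA and 7 were held, where 1.55% of all genes fell and 85.2% were held. All 14 had a negative difference with ABA, and the median was -0.50 with ABA and -0.68 in mock. CHS, chalcone synthase at the entry of the pathway, had 7.85 and 9.09 RPKM at 12 h, against 30.6 and 25.7 RPKM at 4 h with ABA, and 7.62 and 10.6 RPKM at 12 h, against 31.0 and 30.3 RPKM at 4 h in mock. It fell by 1.62 ± 0.39 with ABA (adjusted p = 0.0374), and its mock difference was -1.66 (adjusted p = 0.165). FLS1, flavonol synthase, fell by 1.57 ± 0.33 with ABA, with a mock difference of -1.33. CHLI1, a subunit of the magnesium chelatase of chlorophyll synthesis, fell by 0.90 ± 0.22 with ABA, with a mock difference of -0.72, and was the called gene among the 10 of the chlorophyll synthesis list. Beyond that list, and chosen after their values were seen, 5 other genes of tetrapyrrole and chlorophyll synthesis were called lower with ABA: PCB2 (-1.19), CHLI2 (-0.91), GSA2 (-0.86), HEMC (-0.69) and HEMB1 (-0.61). Their mock differences were also negative, between -0.80 and -0.39, and all 5 calls were lost in each fit with a library left out. The hypoxia-related factor RAP2.3 rose by 1.32 ± 0.28 with ABA, with a mock difference of 1.13. The interaction was not called for any of CHS, FLS1, CHLI1 and RAP2.3. The calls of CHS and CHLI1 were lost in each fit with a library left out, and those of FLS1 and RAP2.3 without replicate 2 of the 12 h group or replicate 1 of the 4 h group. CHS and FLS1 were also not called with a pseudocount of 0.1.

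Single genes of other lists changed. HSP22.0, a small heat shock protein, had 53.4 and 28.9 RPKM at 12 h, against 13.6 and 10.2 RPKM at 4 h with ABA, and between 2.8 and 3.75 RPKM in the 4 mock libraries. It rose by 1.66 ± 0.28 (adjusted p = 0.00376) and was called in all 4 fits with a library left out. GOLS1, galactinol synthase of the raffinose pathway, rose by 1.46 ± 0.28, and AZI1, a lipid-transfer-like protein of systemic immunity, by 1.86 ± 0.34. Their mock differences were 0.31 and 0.90, and the interaction was called for neither. CYP707A2, an ABA 8'-hydroxylase that degrades the hormone, had 5.01 and 4.57 RPKM at 12 h, against 1.98 and 2.34 RPKM at 4 h with ABA, and rose by 0.87 ± 0.21 (adjusted p = 0.0369). JAZ7, a repressor of jasmonate responses, rose by 1.00 ± 0.26. TIP1;1, a tonoplast aquaporin, had 467 and 442 RPKM at 12 h, against 945 and 703 RPKM at 4 h with ABA, and fell by 0.84 ± 0.18 (adjusted p = 0.0175), while its mock difference was 0.01. CYP707A2 and JAZ7 lost their calls in each fit with a library left out, TIP1;1 in 3 of 4, and GOLS1 and AZI1 in 2 of 4.

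**Figure D5:**
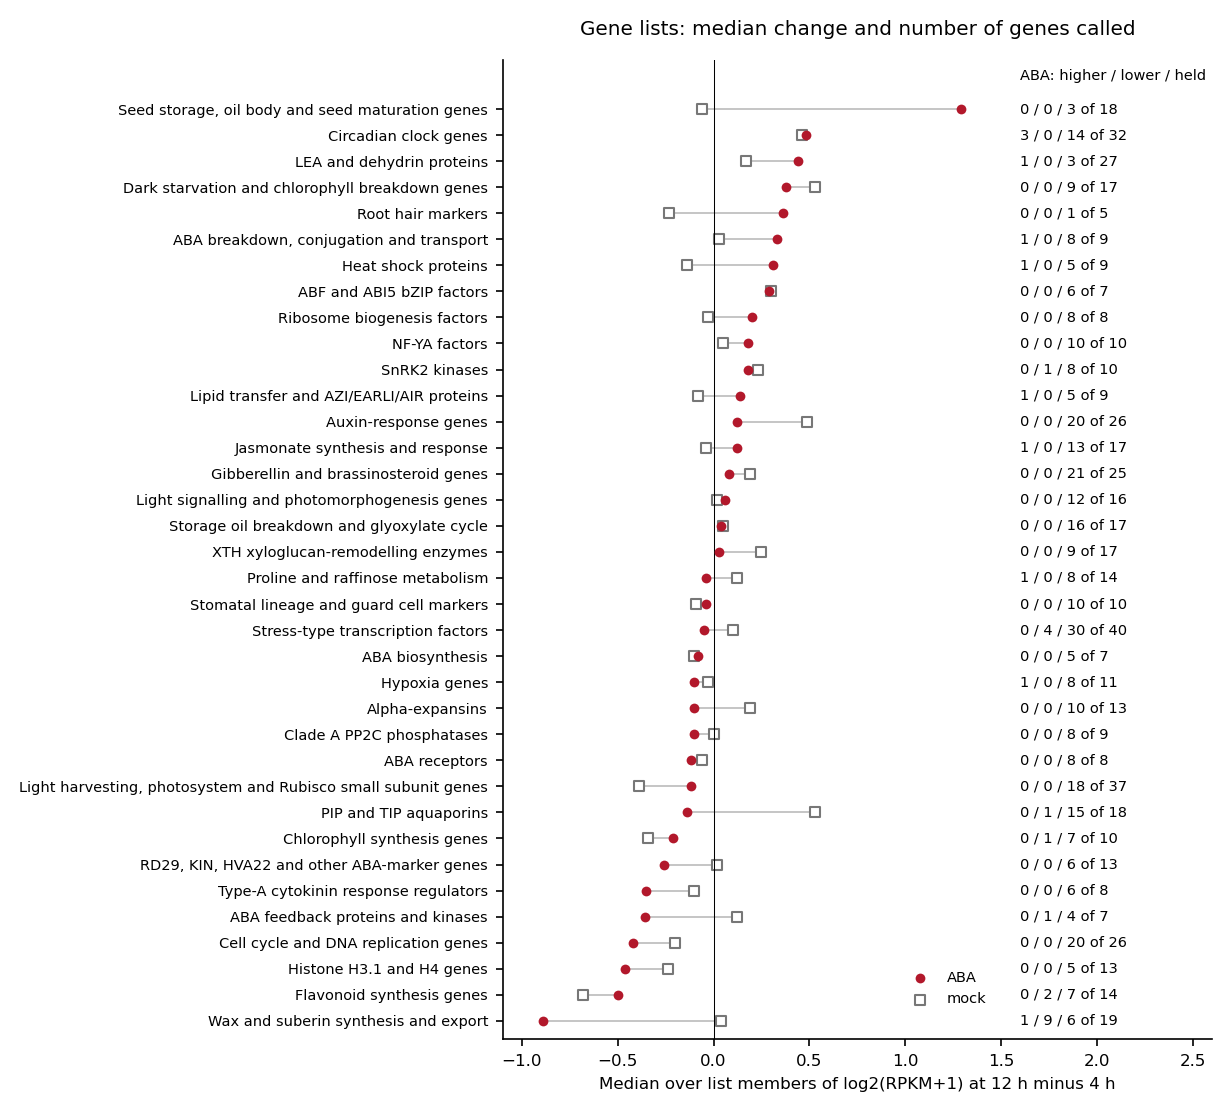
Median difference at 12 h minus 4 h over the measured members of each of 36 gene lists, as log2(RPKM + 1), in ABA seedlings (filled) and mock seedlings (open), with the number of members called higher, called lower and held with ABA beside each list. Wax and suberin genes have the most members called lower, 9 of 19, and seed genes the highest median, 1.29, with 0 of 18 called.

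Some genes crossed a level of 1 RPKM. With both libraries of one time at or over 1 RPKM and both of the other under it, 82 genes were switched on at 12 h (0.448%) and 92 were switched off (0.502%). Only 16 of the 82 and 18 of the 92 passed the limma test. The highest genes switched on were AT2G44925 and CEP1, described above, CYP708A1, AT2G23540 and CYP71B10. CYP708A1, a cytochrome P450, had 4.4 and 2.75 RPKM at 12 h, against 0.594 and 0.363 RPKM at 4 h with ABA, and at most 0.14 RPKM in mock. AT2G23540, a GDSL-type lipase, had 5.01 and 4.3 RPKM at 12 h, against 0.833 and 0.585 RPKM at 4 h with ABA, and at most 0.37 RPKM in mock. The highest genes switched off were AT1G29090, GH9B15, AT1G49570, AT4G15660 and AT5G23840. The peroxidase AT1G49570 had 0.647 and 0.68 RPKM at 12 h and 2.32 and 4.14 RPKM at 4 h with ABA, and 6.82 to 11.0 RPKM in the 4 mock libraries. AT5G23840, of the MD-2-related lipid recognition family, had 0.851 and 0.612 RPKM at 12 h and 4.23 and 3.78 RPKM at 4 h with ABA, and 12.6 to 25.8 RPKM in mock. Neither of the last 2 genes passed the limma test (adjusted p = 0.263 and 0.101).

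The levels at 1, 8 and 24 h stood on neither side of the comparison, although these libraries entered the shared estimate of spread. Of the 143 genes called higher, 100 were also called higher at 8 h than at 1 h and 4 lower, against 12.6% and 10.8% of all genes. At 24 h against 8 h, 100 were called higher and 6 lower, against 8.86% and 12.4% of all genes. For 142 of the 143 the 8 h mean lay between the 4 h and 12 h means, and for 106 it was nearer to that of 12 h. The 284 genes called lower were less uniform. Of these 51 were called higher and 146 lower at 8 h than at 1 h, and 1 was called higher and 198 lower at 24 h than at 8 h. The 8 h mean lay between the others for 232 and was nearer to that of 12 h for 178. Over all genes the 8 h mean lay between the others in 55.9% and was nearer to that of 12 h in 50.7%. The 4 h and 12 h values that chose the genes enter these counts of means.

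The promoter letters were counted over all genes with a RefSeq promoter, in windows from 250 bases before to 50 bases after the gene start, on both strands. The ABA-response elements ACGTGGC or ACGTGTC stood in 24.6% of the 1020 promoters of induced and held genes, in 16.4% of the 61 of induced genes called higher, in 17.5% of the 103 of induced genes called lower, and in 9.5% of 18220 promoters in all. Of the 1020 induced and held genes, 19 were also called. Among all called genes the shares were 12.6% of 143 called higher and 13.4% of 284 called lower. CACGTG, the G-box, which can overlap these elements, stood in 20.8% of the induced and held promoters, in 11.9% of those called higher, in 15.5% of those called lower and in 9.33% of all. TTGACT stood in 32.9% of the promoters called higher, in 25% of those called lower, in 19.6% of the induced and held ones and in 21.6% of all. Among induced genes it stood in 31.1% of those called higher and in 32% of those called lower. In the wax and suberin list 7 of 19 promoters (36.8%) held TTGACT, while CACGTG was found in 0 of them. The core ACGTG alone stood in 31.6% of these 19, in 47.5% of the induced and held promoters, in 45.9% of induced genes called higher, in 41.7% of induced genes called lower and in 28.2% of all. The promoters printed are examples and not a contrast between sets. The letters TGGGCC, a site of growth-related genes, stood in 11.9% of the promoters called higher, in 12.3% of those called lower and in 19.3% of all. The letters AAAATATCT, the evening element of clock-controlled genes, stood in 2.8%, 4.58% and 2.99% of the same 3 sets. These shares describe letters in a window and were not tested.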

How the data were processed

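Poly(A) RNA of whole etiolated seedlings was sequenced on an Illumina HiSeq instrument from a stranded TruSeq kit, per the labels' protocols. The authors deposited RPKM values for 18310 genes, per the file headers, so weakly expressed genes may have been removed before deposit. The submitters' processing notes name HTSeq 0.5.4, edgeR 3.6.2 and build TAIR10. The aligner and whether counting used the strand are not given in the sources used here, so overlapping genes, antisense genes and near-identical paralogs carry uncertain values. Of 512680 values 100.0% were whole reads within 0.01 reads. Recovered reads were 16.27 to 26.6 M per library (median 20.54 M) and cover kept genes only. For the gene of median length, 1 read was worth 0.0229 to 0.041 RPKM.

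limma 3.58.1 (R 4.3.3) was run on log2(RPKM + 1), a scale that understates changes of low genes. A mean was fitted for each of 14 groups of 2 over all 28 libraries, with a trend in the prior variance and 14 degrees of freedom for the spread (17.7 after the prior is added), and tests were two-sided. The median SE of a difference was 0.19. The model script was tested on simulated data. Alternatives were a pseudocount of 0.1, a filter at a mean of 1 RPKM, median-ratio scaling, quantile normalization, limma-voom on recovered reads, only the libraries compared, each library left out, and a replicate block. For the difference between arms, the block was each ABA and mock pair of equal time and replicate number. The call in all 4 fits with a library left out, and the wax and suberin count without each library, were added after seeing the data.

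Named genes were the 12 largest rises and falls among called genes with non-overlapping libraries, the 6 largest differences between arms in each direction, the 5 highest genes switched on and off, the 5 highest induced and held genes, and list members. The members and lists were chosen with earlier results of these data known. Of 626 listed loci 22 were dropped because their symbols did not match the reference annotation, and 556 of the other 604 were measured. Gene names and positions come from RefSeq on TAIR10.1, whose chromosome coordinates are those of TAIR10, and 89 genes had no match there. ABA effects at 8 h, and the 8 h minus 1 h and 24 h minus 8 h contrasts, come from the same model. Python 3.11.15, pandas 2.3.3 and numpy 2.4.6 were used for tables.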

Additional observations from a re-analysis of the deposited data

Results flagged for a closer look

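For 32 genes the change at 12 h minus 4 h differed between ABA and mock seedlings, by the limma interaction term with Benjamini-Hochberg adjustment over 18310 genes. Among the 24 with a more negative change under ABA, the differences (change with ABA minus change in mock, log2) were -3.01 for AT1G05450, -2.1 for EXPA12, -2.06 for AT1G29090, -1.92 for the protein kinase AT2G39110, -1.89 for AT1G68850, -1.86 for the glycosyl hydrolase AT5G55180, -1.73 for ABCG16, -1.70 for CYP86B1, -1.37 for GPAT5 and -1.16 for ABCG20. AT1G05450, AT1G68850 and GPAT5 were barely detected in mock, where a fall could hardly show. Their differences therefore largely restate the fall with ABA. EXPA12 differs in kind, since the called change was a rise in mock. With ABA it had 0.195 and 0.162 RPKM at 12 h, against 0.281 and 0.534 RPKM at 4 h. AT5G55180 had 50.6 and 39.7 RPKM at 12 h, against 147 and 97.5 RPKM at 4 h with ABA, and means of 17 RPKM at 12 h, against 12 RPKM at 4 h in mock. AT2G39110 had 14 and 8.82 RPKM at 12 h, against 31.8 and 28.9 RPKM at 4 h with ABA, and 6.67 and 4.57 RPKM at 12 h, against 4.42 and 2.71 RPKM at 4 h in mock.

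Among the 8 with a more positive change under ABA, the differences were 3.26 for AT2G44925, 2.42 for AT5G09480, 2.4 for OSM34, 2.1 for CEP1, 2.02 for AT3G06390, 1.74 for AT2G23540 and 1.51 for CYP708A1. Each of these 7 genes was also called with ABA in all 4 fits with a library left out.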

How the results depend on the processing

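With 2 libraries per group, the number of calls depended on how the spread was estimated. Held genes numbered 13045 to 16488 under every setting run. With only the libraries compared, limma called 1 gene in all (1 higher, 0 lower), 0 in mock and 1 for the difference between arms, and of the induced genes 0 were lower and 0 higher, as were 0 and 0 of the repressed genes. As reported, 3096 genes had an unadjusted p under 0.05 with ABA and 1889 in mock. A pseudocount of 0.1 gave 281 calls (175 lower), 0 in mock, 11 differences, and 56 lower and 36 higher induced genes. A filter at a mean of 1 RPKM left 3 mock calls. Limma-voom on recovered reads gave 2 mock calls and 6 differences, beside 410 ABA calls. Leaving out 1 library at a time gave 54 to 310 calls (23 to 84 higher, 31 to 226 lower), 0 in mock and 16 to 48 differences. It also gave 24 to 101 lower and 19 to 83 higher induced genes, and 4 to 45 lower and 1 to 13 higher repressed genes. Switches at a limit of 0.5 RPKM were 32 on and 46 off, at 2 RPKM 105 on and 142 off, and with 1 library left out 127 to 155 on and 119 to 288 off. The cause was not tested for any of these.

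Replicate numbers were shared by all groups, and nothing in the labels says that they pair libraries. The deviations of equal numbers correlated at 0.645 across genes between ABA 12 h and ABA 4 h. A model with a replicate block called 1522 genes with ABA (688 higher, 834 lower), 71 in mock and 140 for the difference. In it 202 induced genes were lower and 194 higher, and 84 repressed genes were lower and 35 higher. Within lists, the replicate block called 4 cell cycle genes, 2 type-A regulators, 10 wax and suberin genes and 5 flavonoid genes lower. It called 11 clock genes, 4 dark starvation genes and 3 seed genes higher. No called gene taken by the naming rules or the lists changed direction under any setting. Genes that were not called were not checked for this. Depth limits genes below about 1 RPKM, where few reads stand behind a value.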

Other observations

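Of the growth-related lists not described above, 3 had differences of 1 sign, with no gene called by limma as reported or by limma-voom. All 26 measured cell cycle and DNA replication genes had a negative difference at 12 h minus 4 h with ABA, with a median of -0.42, against -0.20 in mock. Of these, 20 were held, where 85.2% of all genes were, and 7 had an unadjusted p under 0.05. All 13 measured genes for histones H3.1 and H4 were negative, with a median of -0.46 with ABA and -0.24 in mock, and 5 had an unadjusted p under 0.05. All 8 measured type-A cytokinin response regulators, negative regulators of cytokinin signalling, were negative, with a median of -0.35 with ABA and -0.10 in mock, and 1 had an unadjusted p under 0.05. Other such lists were mixed in sign. Ribosome biogenesis factors had 6 positive and 2 negative differences and all 8 were held, alpha-expansins had 4 and 9, XTH enzymes 10 and 7, auxin-response genes 18 and 8, and gibberellin and brassinosteroid genes 16 and 9.

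Genes of dark starvation and chlorophyll breakdown had a median of 0.38 with ABA and 0.53 in mock, and 16 of 17 were positive with ABA, with none called by limma or limma-voom and 2 at an unadjusted p under 0.05. ASN1, a dark-induced asparagine synthetase, had 599.9 and 1181 RPKM at 12 h, against 297 and 769 RPKM at 4 h with ABA, and 754 and 1019 RPKM at 12 h, against 321 and 549 RPKM at 4 h in mock. Its replicate 2 library was higher than its replicate 1 library in each of these 4 groups. Aquaporins had a median of -0.14 with ABA and 0.53 in mock, and 16 of 18 were negative with ABA. In this list 15 were held, 1 was called lower with ABA, and the interaction was called for 0. Storage oil breakdown and glyoxylate cycle genes were held in 16 of 17 cases, near the 85.2% of all genes that were held.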
